A study of Homo sapiens with 11 samples.

Results

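The clustered protocadherins are 53 protein-coding genes that lie side by side on human chromosome 5, and their RNA and histone marks were examined in HK2 cells. Members were chosen by name, as every protein-coding gene on that chromosome whose name in the RNA-seq data begins with PCDHA, PCDHB or PCDHG. This gave 15 alpha, 16 beta and 22 gamma genes of 19645 protein-coding genes, while the pseudogenes of the cluster were left out. In hg19 the cluster runs over 726824 bases, from 140165721 to 140892544, with the alpha genes first, then the beta genes and then the gamma genes, all on the plus strand.

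HK2 is an immortalised human line of kidney proximal tubule cells. It was grown under 1 condition, in a serum-containing medium with a little DMSO, and was fixed with formaldehyde for ChIP-seq or lysed for RNA-seq. RNA-seq had 2 libraries. ChIP-seq had 2 replicates each of H3K4me3, a mark of promoters, H3K27ac, a mark of active promoters and enhancers, and H3K27me3, a mark of Polycomb-repressed chromatin. Nothing in the labels says whether replicates came from separate cultures, so the spread between them may be technical. Without a second condition there was no contrast between groups to test, and the values below are levels, counts and the spread between replicates. Of 15 epithelial and tubule markers, 8 reached an FPKM (fragments per kilobase of transcript, scaled to the mapped fragments of the library) of 1 in each library, KRT8, CDH6 and PAX8 among them, but the proximal tubule genes HNF4A and LRP2 were listed at 0 in both and CUBN and AQP1 were below 0.3. Of 10 neuronal markers, 4 passed that level, the highest being TUBB3 at 73.8 and 46.9, while STMN2 and ELAVL4 were listed at 0, and 2 of 7 fibroblast markers passed, COL1A1 and LUM. Summed FPKM was 686 and 680 for the epithelial and tubule list, 81.1 and 54.5 for the neuronal list and 46.0 and 44.6 for the fibroblast list, and the part of these levels in the protocadherin values was not tested.

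Protocadherins are single-pass membrane proteins of the cadherin superfamily, and the clustered ones are best known from neurons, where each cell uses a small set of them as a surface identity. Every alpha and gamma gene has its own promoter and 1 large variable exon that encodes the cadherin repeats and the transmembrane segment. That exon is spliced to 3 shared exons at the 3′ end of the alpha or of the gamma stretch, which encode a common cytoplasmic tail. Beta genes have no shared exons, and nearly all of each protein is read from a single exon. The last alpha genes, PCDHAC1 and PCDHAC2, and the last gamma genes, PCDHGC3, PCDHGC4 and PCDHGC5, form the C-type and differ in sequence from the others.

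Most of these promoters carry a short conserved element, the CGCT box, which in neurons is part of a binding site of the insulator protein CTCF. The sequences just before the RefSeq start of 6 members are printed here because these are the members on which the results turn, with the highest genes and marked promoters of each subfamily and PCDHA1 as the first gene of the nearly silent alpha stretch. They are given 5′ to 3′ on the plus strand of GRCh38.p14, credited to RefSeq, and capitals mark every CGCT.
PCDHGC3, chr5:141475766-141475965: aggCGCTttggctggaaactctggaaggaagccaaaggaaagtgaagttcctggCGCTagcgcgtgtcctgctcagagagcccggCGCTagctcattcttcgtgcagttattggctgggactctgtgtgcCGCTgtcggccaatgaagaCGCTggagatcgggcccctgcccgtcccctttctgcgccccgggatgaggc
PCDHGA7, chr5:141382622-141382741: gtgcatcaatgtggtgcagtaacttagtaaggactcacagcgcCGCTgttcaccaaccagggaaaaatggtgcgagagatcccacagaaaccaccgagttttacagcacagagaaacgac
PCDHB13, chr5:141213799-141213918: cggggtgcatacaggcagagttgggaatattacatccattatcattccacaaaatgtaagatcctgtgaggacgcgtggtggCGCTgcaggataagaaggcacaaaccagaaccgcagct
PCDHB3, chr5:141100353-141100472: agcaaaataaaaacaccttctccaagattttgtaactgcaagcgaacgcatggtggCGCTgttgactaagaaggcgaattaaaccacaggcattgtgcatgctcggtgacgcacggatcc
PCDHAC2, chr5:140966356-140966475: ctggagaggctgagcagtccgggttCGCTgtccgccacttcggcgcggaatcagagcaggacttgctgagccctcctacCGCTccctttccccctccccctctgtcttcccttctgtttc
PCDHA1, chr5:140786020-140786139: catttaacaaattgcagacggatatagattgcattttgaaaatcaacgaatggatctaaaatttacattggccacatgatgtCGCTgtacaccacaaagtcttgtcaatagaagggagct

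In PCDHGC3 the letters CGCT occurred 5 times in these 200 bases, and in PCDHGA7, PCDHB13, PCDHB3 and PCDHA1 once in 120. A RefSeq promoter was matched for 47 of the 53 members, and where a gene had more than 1 entry the most upstream was used. CGCT, read on the strand of the gene, stood within 250 bases before the start in 45 of the 47, compared with 47.7% of 27326 RefSeq promoters. Between 30 and 90 bases before the start, a window chosen after the positions were seen, it stood in 42 of 47 members and in 19.2% of all promoters. On the other strand, where it reads AGCG, it stood in 18 members (38.3%) and in 48.2% of all promoters. The subfamilies differed in this, with 15 of 20 gamma, 2 of 13 alpha and 1 of 14 beta genes. The 2 members with no CGCT in the 250 bases were PCDHA9 and PCDHB8. The letters CGCT thus stood both before genes with RNA, such as PCDHGC3, and before genes listed at 0, such as PCDHA5. A match of 4 letters is a description and not a site, and the conserved element itself was not searched for.

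RNA from the cluster was mostly RNA of 1 gene. PCDHGC3 had an FPKM of 18.4 in library 1 and 15.7 in library 2 (17.0 ± 1.95, SD, n = 2), and it ranked 4055 of 19645 protein-coding genes. PCDHGA7 followed at 2.66 and 2.15 (2.40 ± 0.359), and PCDHGB5 at 1.17 and 1.01 (1.09 ± 0.114). No other member reached an FPKM of 1 in each library, which leaves 3 of 53, where 58.8% of all protein-coding genes passed that level. PCDHGC3 was 6.93-fold and 7.28-fold above PCDHGA7 in the 2 libraries. It held 65.6% and 64.5% of the summed FPKM of all 53 members. As bulk RNA was sequenced, PCDHGC3 RNA in every cell and more of it in a share of the cells cannot be told apart. On the TPM scale (transcript levels scaled to a fixed total) 8 members reached 1 in both libraries, and the added members were PCDHB2, PCDHB3, PCDHB13, PCDHGB2 and PCDHGC5. The share of all genes at that TPM was not computed, and the 58.8% does not stand for it.

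**Figure D1:**
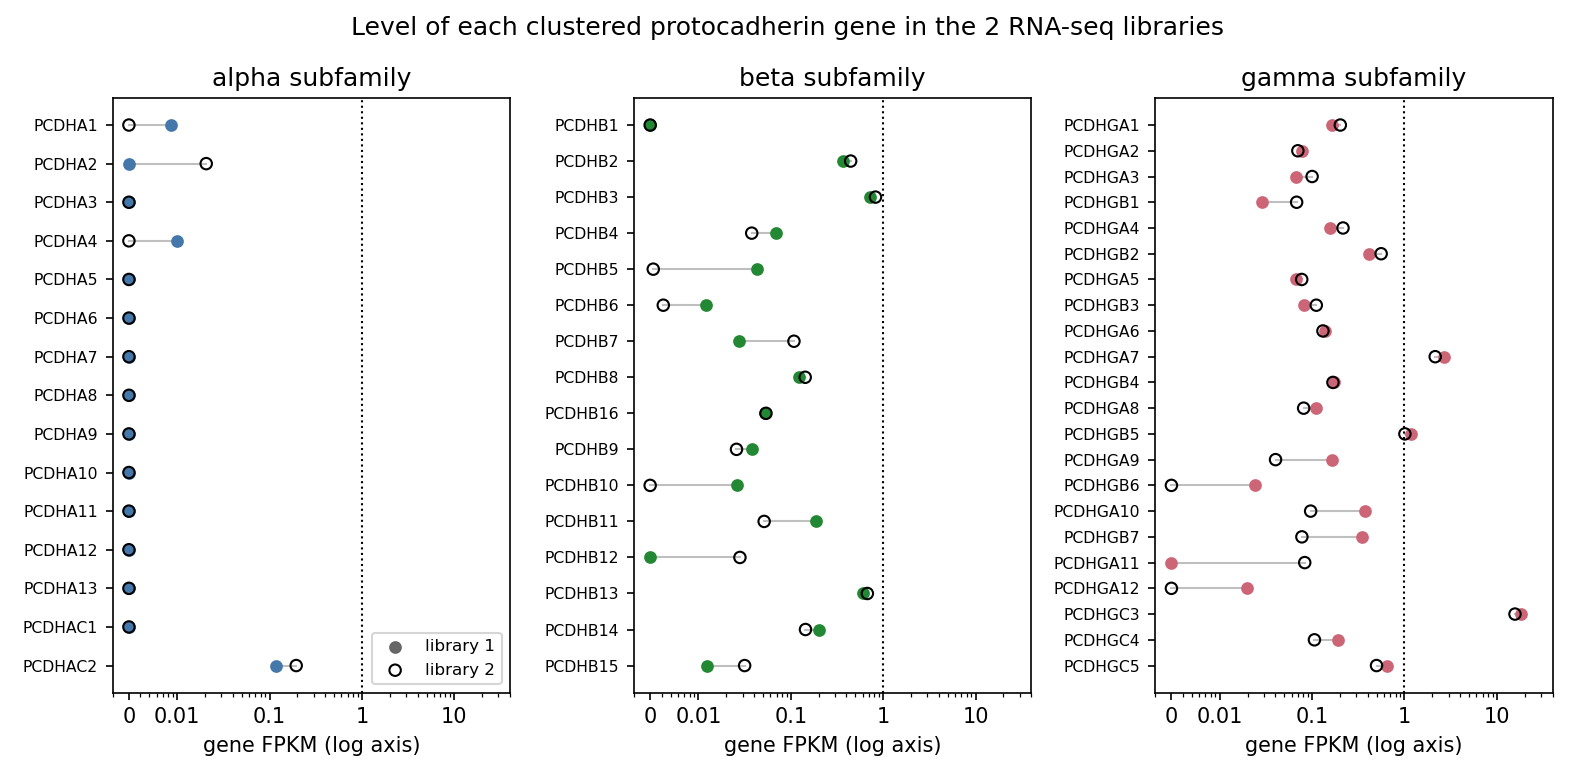
Gene FPKM of the 53 clustered protocadherins on a log axis, in order along the chromosome within each subfamily, with library 1 as filled points and library 2 as open circles; values of 0 are drawn at the left edge and the dotted line marks an FPKM of 1. PCDHGC3, at 18.4 and 15.7, stood apart from the other members, and 11 of 15 alpha genes were listed at 0 in both libraries.

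The alpha subfamily was close to silent. Of its 15 genes, 11 were listed at 0 in both libraries, and its median level was 0. The genes so listed were PCDHA3, PCDHA5 to PCDHA13 and PCDHAC1. The highest alpha gene was the C-type PCDHAC2, at 0.118 and 0.194 (0.156 ± 0.0538). PCDHA1 (0.00856 and 0), PCDHA2 (0 and 0.0206) and PCDHA4 had a value above 0 in 1 library each. Beyond the alpha stretch 1 further member, PCDHB1, was listed at 0 in both libraries, so 12 of 53 members were, compared with 19.6% of all protein-coding genes. Summed over the 15 alpha genes, FPKM was 0.176 ± 0.0553 (n = 2 libraries).

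The beta genes were low, and 14 of 16 were above 0 in both libraries, as were 14688 of all 19645 protein-coding genes. The median beta gene had an FPKM of 0.0532. Levels within the subfamily were uneven, with PCDHB3 at 0.722 and 0.824, PCDHB13 at 0.597 and 0.673, and PCDHB2 at 0.371 and 0.444. PCDHB14 followed at 0.203 and 0.144, and PCDHB8 at 0.122 and 0.143. The libraries of PCDHB3, of PCDHB13 and of PCDHB2 did not overlap with those of any other beta gene. Those of PCDHB14 overlapped with those of PCDHB11 (0.188 and 0.0514), and the lower value of PCDHB14 was next to the higher value of PCDHB8. PCDHB14 overlaps a read-through gene in the annotation, so its reads may be divided with that gene. The 16 beta genes summed to 2.53 ± 0.0622, compared with 23.5 ± 2.81 for the 22 gamma genes.

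Among the gamma genes the median was 0.141, and the mean level ranged from 0.00990 for PCDHGA12 to 17.0 for PCDHGC3. Below the leading 3 came PCDHGC5 at 0.644 and 0.498 and PCDHGB2 at 0.408 and 0.559, 2 genes whose libraries overlapped. The remaining C-type gene, PCDHGC4, was at 0.189 and 0.106. Among the 5 C-type genes PCDHGC3 thus stood above PCDHGC5, and PCDHGC5 above PCDHGC4 and PCDHAC2, by more than the library spread, while PCDHGC4 and PCDHAC2 overlapped and PCDHAC1 was listed at 0. The median of all 53 members was 0.0534, compared with 3.32 for all protein-coding genes.

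The 4 highest members, PCDHGC3, PCDHGA7, PCDHGB5 and PCDHB3, came in the same order in both libraries. None of the 3 members with a mean FPKM of at least 1 differed by over 2-fold between libraries, and 1.64% of all genes at that level did. Among members above 0 in both libraries 10 differed by more than 2-fold, the widest being PCDHB12 (0.00136 and 0.0281) and PCDHB5 (0.0433 and 0.00324), while the share of all genes without a filter on level was not computed. All 10 had a mean below 0.3, and at such values the number of reads behind a gene is small and not given. Values of coverage over FPKM put the aligned bases at about 5.67 and 5.52 gigabases, so depth was similar in the 2 libraries.

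Since alpha and gamma genes share their 3′ exons, a read from those exons could belong to any gene of the subfamily, and StringTie divides such reads among transcripts. The variable first exon belongs to 1 gene, so its depth (mean reads per base) was read from the full-length transcript as a check of the gene values. For PCDHGC3 the variable exon had a depth of 98.1 and 73.8, and for PCDHGA7 13.8 and 10.6. PCDHGB5 followed at 3.07 and 4.76, PCDHGB2 at 2.08 and 1.43, and PCDHGC5 at 1.65 and 1.61. These 5 were the gamma genes with a depth of at least 1 in both libraries, and the first 3 are the 3 genes that passed an FPKM of 1. PCDHGB5 passed it only with a single-exon form added, as its full-length form stood at 0.762 and 0.838. PCDHGC3 made up 80.1% and 78.5% of the variable exon depth summed over the full-length forms of the subfamily. Single-exon forms that cover the same exons were left out of this sum. Its share of the gamma FPKM, 72.3% and 72.8%, counts every form, so the 2 shares are not directly comparable.

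All depths in this paragraph are those of the full-length forms, without the single-exon and other short forms. Depth on the shared gamma exons was above that of the variable exons of these forms summed. On the first shared exon it came to 151 and 146, and on the second to 164 and 134. On the last and longest shared exon it came to 133 and 111 over all gamma genes, compared with 123 and 94.1 on the variable exons, and PCDHGC3 was given 69.2% and 70.7% of it. A group of 9 gamma genes in each library was given nearly the same depth on this exon, from 0.799 to 0.831 in library 1 and from 0.811 to 0.851 in library 2. In the same full-length forms, their own variable exons ranged from 0.000165 to 0.928 and from 0.000144 to 0.540. The full-length form of PCDHGA2 is an example, with 0.801 and 0.811 on the shared exon and 0.000165 and 0.000144 on its own. A single-exon form over the same variable exon took a further 14.3% and 0.0200% of the gene's FPKM. The FPKM of PCDHGA2, 0.0782 and 0.0701, therefore rested mainly on the shared exons. This was not so for each of the 9, as the variable exon of PCDHGB4 had 0.928 in library 1 compared with 0.831 on the shared exon, and a single-exon form took 43.7% and 51.9% of the FPKM of PCDHGA1. In the full-length form, 8 of 22 gamma genes had a variable exon depth below 0.1 in both libraries, and 3 of these, PCDHGA2, PCDHGA5 and PCDHGA11, were given a shared exon depth above 0.5 in at least 1 library. This does not make the exon empty, since PCDHGC4 and PCDHGA9 had 100% of their FPKM in single-exon forms. PCDHGB7 and PCDHGA10 had a shared exon depth of 3.49 and 2.46 in library 1 and of 0 in library 2, and their FPKM moved from 0.343 to 0.0775 and from 0.376 to 0.0964.

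**Figure D2:**
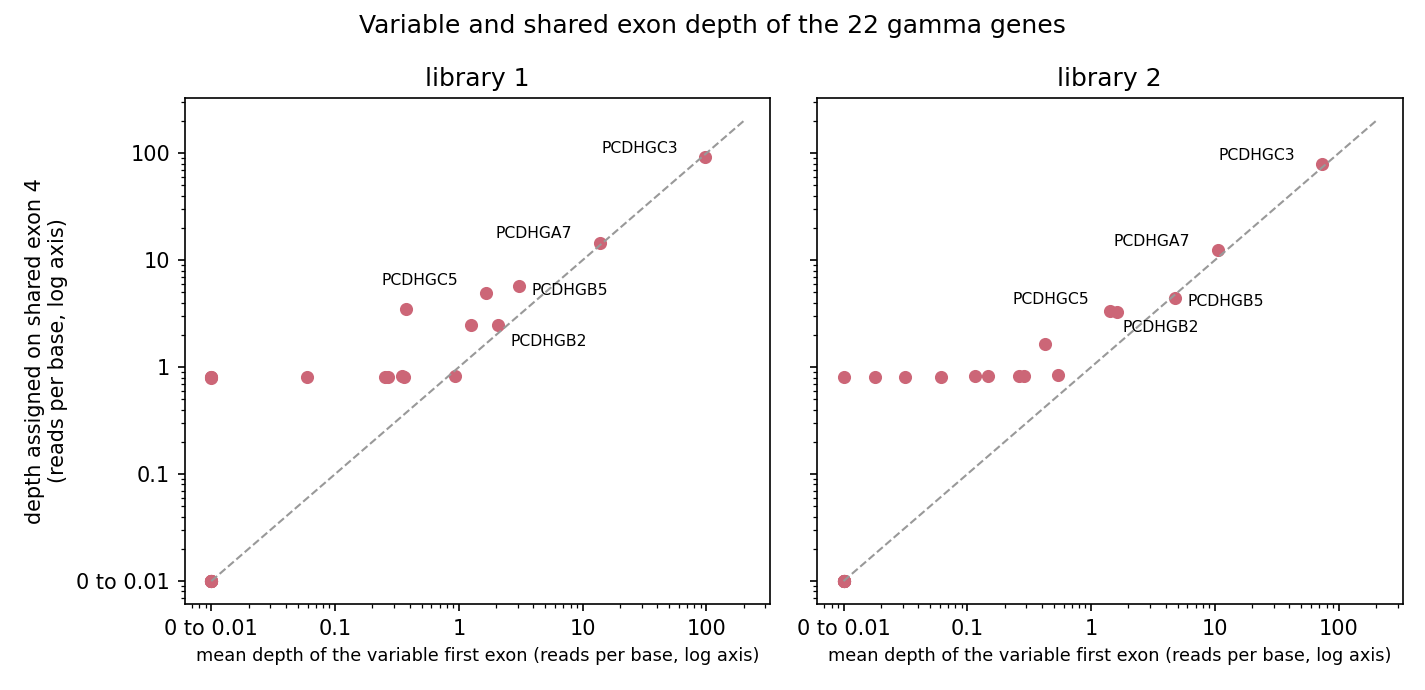
Depth that StringTie assigned on the last shared exon against the depth of the variable first exon for the full-length transcript of each of the 22 gamma genes, on log axes in reads per base, 1 panel per library; the dashed line marks equal depth and values up to 0.01 are drawn at the edge. PCDHGC3 and PCDHGA7 lie near the line, while 9 genes in each library form a row near 0.8 on the shared exon whatever the depth of their own exon in that transcript. Single-exon forms are not drawn.

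In the alpha subfamily the shared exons were nearly empty as well. The last shared exon had a summed depth of 0.454 and 1.31, and all of it was assigned to PCDHAC2, whose variable exon stayed below 1 in both libraries. Few shared reads were thus there to be divided among the alpha genes. For beta genes the depth over the single exon of the main transcript was 4.09 and 3.92 for PCDHB3, 3.38 and 3.71 for PCDHB13 and 2.10 and 2.45 for PCDHB2. In library 2 a short form, ENST00000624513, took 13.7% of the FPKM of PCDHB3, and the main form stood at 0.722 and 0.711.

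The annotation used by the authors lists 127 transcripts of the 53 genes, and 60 of them were listed at 0 in both libraries. Transcripts of other genes were not counted, so whether these counts are unusual is not known. In the gamma subfamily 37 of 54 transcripts were above 0 in both libraries, compared with 14 of 32 in the beta and 2 of 41 in the alpha subfamily. PCDHGC3 has 8 annotated transcripts, and the full-length form of 4 exons, ENST00000308177, took 91.7% and 88.8% of the gene's FPKM, at 16.9 and 13.9. The next, ENST00000611950, is a single exon and stood at 0.494 and 0.815. PCDHGA7 was likewise mostly full-length (94.3% and 97.3% in ENST00000518325). For PCDHGB5 a form of 1 exon that does not join the shared exons took 35.0% in library 1 and 17.2% in library 2.

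Some variable exons resemble each other closely, and their reads could be placed at the wrong gene. Windows of 50 bases that occur more than once in the cluster made up a median of 9.26% of an alpha exon, 14.2% of a beta gene and 9.35% of a gamma exon in hg19. The highest were PCDHB8 at 47.0% and PCDHA9 at 33.4%, and among the gamma exons PCDHGB5 at 20.6%. The 5 C-type exons, that of PCDHGC3 included, held no such window. Values of PCDHB8, PCDHA9 and other members with long repeated stretches are thus less certain than those of the C-type genes.

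Next the promoters were examined. A mark was taken as present at a gene where a peak touched the 1 kb on either side of any annotated transcription start site (TSS) in both replicates. H3K4me3 was present at 4 of 53 members, PCDHAC2, PCDHB13, PCDHGA7 and PCDHGC3, where 70.3% of all protein-coding genes had it. H3K27ac was present at PCDHGC3 and at no other member, while 55.0% of all genes had it. H3K27me3 was present at none, compared with 11.4% of all genes, and no member had H3K4me3 together with H3K27me3, a pair found at 7.02% of genes. In the paper, the share of mapped reads inside peaks was lower for H3K27me3 than for the other marks in both replicates, so weak H3K27me3 may have been missed. For H3K4me3 and H3K27ac that share was lower in replicate 2 than in replicate 1. Of the 4 members with H3K4me3, 2 reached an FPKM of 1 in each library, PCDHGA7 and PCDHGC3, compared with 81.4% of all genes with H3K4me3 in both replicates. Both active marks were at PCDHGC3 alone, and at 53.5% of all genes. In all, 40 of 53 members had no peak of any mark in any replicate near a start, which was so for 15.1% of genes.

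PCDHGC3 had the most covered bases of each active mark, counted over several annotated starts, the internal one near its 3′ end included. Its H3K4me3 peaks were chr5:140855419-140856585 in replicate 1 and chr5:140855401-140856768 in replicate 2, over the start of the gene and the first part of its variable exon. Its H3K27ac peaks lay at the same place, from 140855102 to 140856473 and from 140855471 to 140856460. At PCDHGA7 H3K4me3 stood over the start in both replicates (140762042 to 140762891 and 140762299 to 140762757), but H3K27ac was called in replicate 1 alone. PCDHB13 had H3K4me3 of 607 and 305 bases within 1 kb of its start and no H3K27ac. PCDHAC2 had H3K4me3 of 1088 and 1048 bases, and it was the single member with an H3K27me3 peak within 1 kb, of which 86 bases fell in the window in replicate 1 and none in replicate 2. PCDHGB5, the third gene by FPKM, had no peak of any mark near its start.

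The replicates named different promoters beyond these 4, with 7 members marked in replicate 1 (71.9% of all genes) and 10 in replicate 2 (78.0%). H3K4me3 replicate 1 added PCDHB2, PCDHB3 and PCDHGC5, all with an FPKM above 0.3 in both libraries. Replicate 2 added PCDHA10, PCDHB1, PCDHB8, PCDHGB6, PCDHGA8 and PCDHGA11, all at 0.143 or below in both libraries. The peak counted for PCDHA10 lay far into its own exon, next to an internal start, and that counted for PCDHGA8 lay in the exon of PCDHGB4, before the outermost start of PCDHGA8. PCDHGC5 also had an H3K27ac peak of 1258 bases in replicate 1 and none in replicate 2, so that H3K27ac was at 3 members in replicate 1 (67.5% of all genes) and at 1 in replicate 2 (55.1%). Members with H3K4me3 in both replicates had a median FPKM of 1.52 (n = 4) and the others of 0.0484 (n = 49). On the log2(FPKM + 1) scale the means were 1.71 and 0.15, a difference of 1.57, and without PCDHGC3 it was 0.75. The difference was 1.15 with the marks of replicate 1 alone and 0.57 with those of replicate 2 alone. Across the 53 members the rank correlation of H3K4me3 covered bases with mean FPKM was 0.541 for replicate 1 and 0.178 for replicate 2, which is a description, since members share exons, sequence and neighbourhood.

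Along the whole cluster H3K27me3 was scarce. H3K27ac covered 1.43% and 0.764% of the whole cluster and differed between its stretches. The alpha and beta stretches held no H3K27ac peak in either replicate, while H3K27ac covered 3.47% and 1.26% of the genome in the 2 lists. In the gamma stretch it covered 4.94% and 2.51%. H3K27me3 had 1 peak in the cluster, near PCDHAC2 from 140344206 to 140345140 in replicate 1, and covered 0.129% and 0% of it, compared with 2.85% and 0.862% of the genome. In the alpha stretch, the H3K4me3 peak at PCDHAC2 was the only peak of the 3 marks called in both replicates. The heights of peaks are not given, so signal below the authors' calling threshold could not be examined.

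H3K27ac in the gamma stretch was not limited to the PCDHGC3 promoter. It was called in both replicates from 140819079 to 140820944 and from 140819476 to 140819982, at the pseudogene PCDHGB9P, with no H3K4me3 peak. It was called again at chr5:140886878-140890179 in replicate 1 and chr5:140886965-140888540 in replicate 2, in the shared part of the gamma stretch next to an internal PCDHGC3 start, where H3K4me3 was called in replicate 1 from 140887643 to 140888627. A further block across the 3′ end of the gamma genes ran from 140892322 to 140896626 and from 140892443 to 140896029, toward DIAPH1, a neighbour that encodes a formin. Of the 11 neighbours examined, 9 had an FPKM of at least 1 and H3K4me3 in both replicates. Over all protein-coding genes 58.8% had that level and 70.3% had that mark. TAF7, a gene of the TFIID complex that lies between the beta and gamma genes, was at 20.8 and 22.7 and had both active marks in both replicates. SLC25A2, which lies within the annotated span of TAF7, was listed at 0. Low levels in the cluster were thus interrupted by TAF7 and bordered by genes such as DIAPH1 at 44.9 and 25.8. An H3K4me3 peak of both replicates (140464238 to 140464813 and 140464260 to 140464582) lay between PCDHB1 and PCDHB2, 2240 bases from the nearest annotated TSS.

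The H3K4me3 replicates differed most inside the exons of the members. Replicate 1 had 10 peaks in the cluster, of which 7 touched a variable exon or beta gene, with midpoints 25 to 469 bases from its start. Replicate 2 had 40, of which 34 touched one, and 26 of these had their midpoint more than 1 kb from the start of the exon, each in a different member. The 26 were spread over 9 alpha, 9 beta and 8 gamma genes and stood at closely similar places, from 1522 to 2176 bases into the exon with a median of 2045. None of the 26 overlapped a peak of replicate 1. Of all 40 replicate 2 peaks in the cluster 6 did, and the share over the genome was not computed. Counting internal starts and other genes, 9 of the 26 lay within 1 kb of some annotated TSS. In the text that follows they are called late exon peaks.

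**Figure D3:**
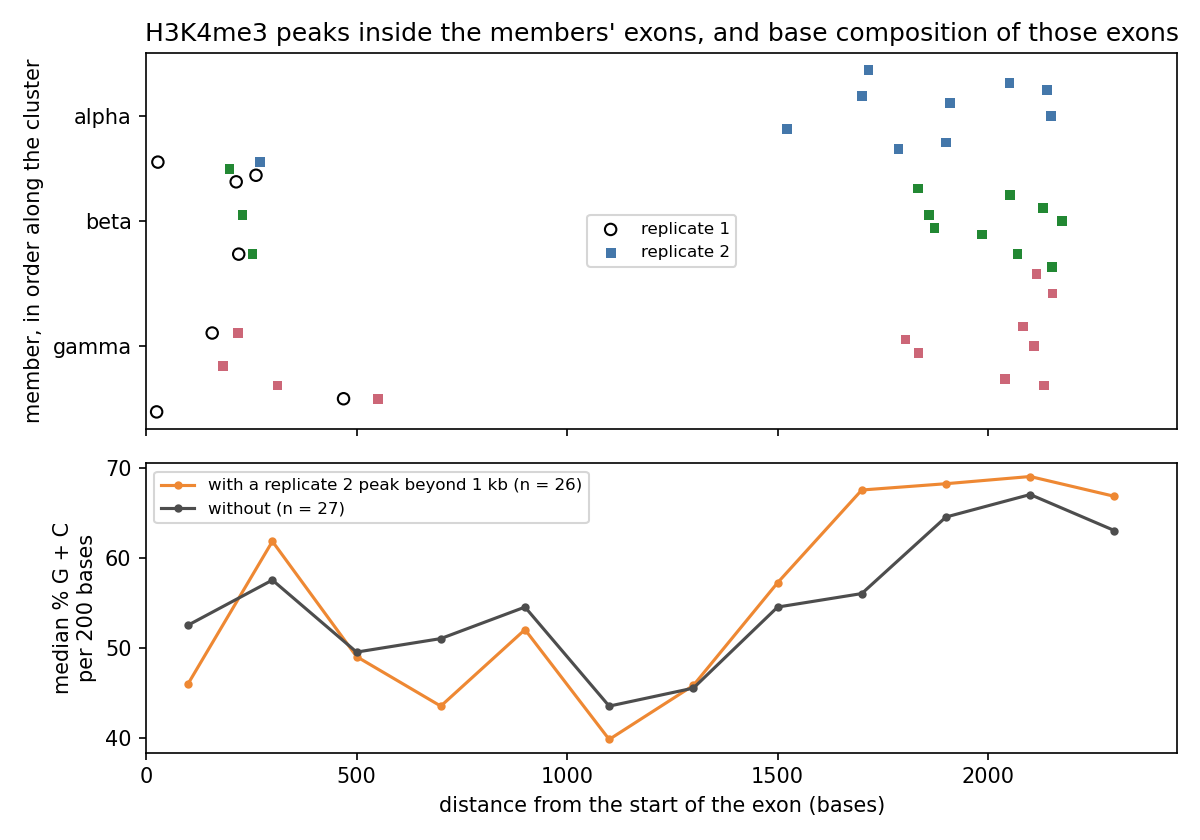
Top, distance in bases from the start of the variable exon (or beta gene) to the midpoint of each H3K4me3 peak, members in order along the cluster, with replicate 1 as open circles and replicate 2 as squares coloured by subfamily. Bottom, median percent G + C per 200 bases of the same exons, for the 26 members with a late exon peak and the 27 without; replicate 2 peaks gather between 1522 and 2176 bases, where the exons are rich in G + C.

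Members had little RNA at the median, with a late exon peak or without. The median FPKM of members with such a peak was 0.0367, compared with 0.0967 for the other 27 members. Of those with one, 7 were listed at 0 in both libraries, as were 12 of all 53 members and 19.6% of all protein-coding genes. All 7 were alpha genes, a subfamily in which 11 of 15 were so listed. PCDHA3 and PCDHA8 are examples, alpha genes listed at 0 with a late exon peak and no peak of any mark near their starts. PCDHGB5, at an FPKM above 1, had a late exon peak and likewise none near its start. PCDHB13 carried both a promoter peak in both replicates and a late exon peak in replicate 2. PCDHGC3 and PCDHGA7 had none.

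The late exon peaks lay in a part of the exon that was rich in G + C in members without such a peak too. Per 200 bases, medians in those 27 members were 49.5 to 57.5% in the first 1 kb and 56.0 to 67.0% over bases 1600 to 2200. In the 26 members with a peak they were 43.5 to 61.8% and 67.5 to 69.0%. The comparison with the first 1 kb therefore does not separate the peaks from their place in the exon. The late exon peaks had a median of 68.0% G + C, from 65.3 to 71.6, while the first 1 kb of the same exons had 49.7%, from 46.3 to 55.3, and the peak was the richer in 26 of 26. The ratio of observed to expected CG pairs was 0.860 in the peaks and 0.683 in the first 1 kb at the median, and it was higher in the peak in 25 of 26. Over bases 1500 to 2200 of the exon the median was 67.1% in members with a late exon peak, from 61.0 to 68.6, and 62.1% in the others, from 44.9 to 69.4, and these ranges overlapped. The peaks were narrow, at a median of 367 bases. To show what such a stretch is made of, the middle 120 bases of the narrowest late exon peak in each subfamily are printed from the plus strand of hg19, the first in genome order at a tie, and capitals mark each CG pair.
PCDHA10, chr5:140236944-140237063: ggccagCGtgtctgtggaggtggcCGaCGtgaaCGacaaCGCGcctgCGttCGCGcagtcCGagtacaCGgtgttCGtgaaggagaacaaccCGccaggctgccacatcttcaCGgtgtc
PCDHB4, chr5:140503174-140503293: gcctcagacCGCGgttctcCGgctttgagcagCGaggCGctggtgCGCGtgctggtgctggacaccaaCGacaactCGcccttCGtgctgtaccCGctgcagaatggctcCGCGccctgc
PCDHGB4, chr5:140769009-140769128: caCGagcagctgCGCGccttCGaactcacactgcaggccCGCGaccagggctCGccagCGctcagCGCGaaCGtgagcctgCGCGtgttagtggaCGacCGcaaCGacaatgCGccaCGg

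These 3 stretches held 14, 13 and 18 CG pairs. They start 1463, 1775 and 1745 bases into the exon of PCDHA10, PCDHB4 and PCDHGB4, within the part that encodes the protein. Repeated 50-base windows made up a median of 30.4% of the late exon peaks (from 0 to 93.4%) and 8.94% of the first 1 kb of the same exons, so the placement of reads in some of them is less certain.

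Late exon peaks were also seen outside the cluster. Over all protein-coding genes with a coding exon of at least 2 kb, 21.0% of 727 had a replicate 2 peak centred in that exon and over 1 kb from every annotated TSS of the gene. By the same rule 23 of 51 members did (45.1%), and 19.2% of 676 other genes. With replicate 1 the shares were 0 of 51 members and 2.34% of all 727 genes. Replicate 2 held 73942 peaks with a median width of 434 bases and replicate 1 held 29130 with 1194. The paper lists fewer aligned read pairs and a lower share of reads inside peaks for H3K4me3 replicate 2 than for replicate 1. Within 1 kb of a protein-coding TSS lay 19818 of 73505 replicate 2 peaks and 14739 of 28615 replicate 1 peaks on the chromosomes examined. On chromosome 5 outside the cluster, the peaks away from a TSS had a median of 57.8% G + C in replicate 2 and 47.6% in replicate 1. The part of peak calling, depth and base composition in the late exon peaks was not tested.

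Finally, other genes of the same family and genes that act on the cluster or its proteins were examined for comparison. Of 19 non-clustered protocadherins and large cadherins 4 reached an FPKM of 1 in each library, led by the giant cadherin FAT1 at 120 and 131, then PCDH7 at 7.61 and 7.56 and FAT4 at 2.86 and 3.30, and PCDH11X, PCDH12 and PCDH15 were listed at 0. Of all protein-coding genes 58.8% passed that level. The median of these 19 genes, 0.156, was also low. Of the 19, 13 had H3K4me3 in both replicates, near the 70.3% of all genes, and 5 had H3K27me3 in both, compared with 11.4%. In the cluster 4 of 53 had H3K4me3 and 0 had H3K27me3. Of 24 genes that regulate the cluster, such as CTCF, cohesin subunits and enzymes of DNA and histone methylation, 23 had an FPKM of at least 1. The exception was TET1, at 0.299 and 0.369. The highest were the corepressor TRIM28 at 194 and 188, the cohesin subunit RAD21 at 61.9 and 62.6 and UHRF1, which takes part in maintaining DNA methylation, at 57.7 and 54.6. Of 18 genes for partners and processing of protocadherins, which include the WAVE complex, focal adhesion kinases and gamma-secretase, 16 reached an FPKM of 1. The WAVE subunit BRK1 (66.7 and 63.8), the gamma-secretase subunit NCSTN (55.5 and 62.8) and the focal adhesion kinase PTK2 (44.1 and 37.5) led them, and PTK2B and ROR2 were below 1.

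**Figure D4:**
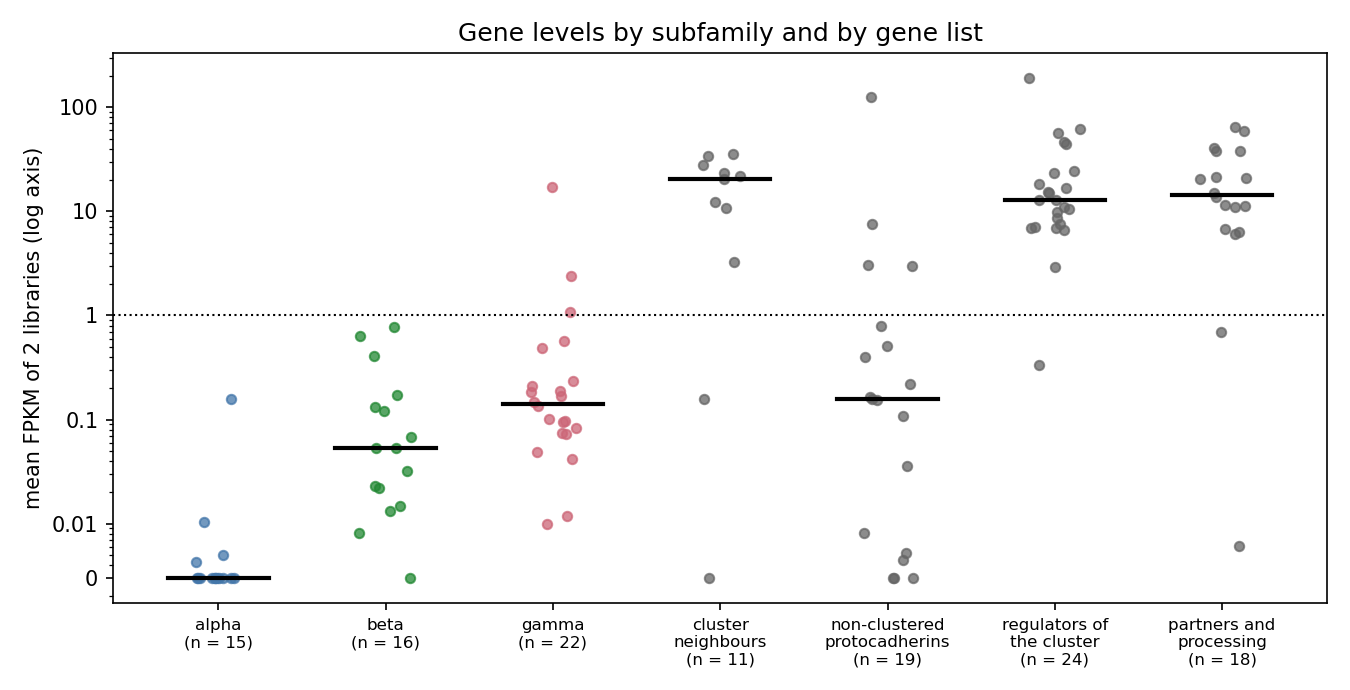
Mean FPKM of 2 libraries on a log axis for the members of each subfamily and for 4 other gene lists, 1 point per gene with a bar at the median; values of 0 are drawn at the lower edge and the dotted line marks an FPKM of 1. The medians are 0, 0.0532 and 0.141 for the alpha, beta and gamma genes, 0.156 for the non-clustered protocadherins and 20.4, 13.0 and 14.3 for neighbours, regulators and partners.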

How the data were processed

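Members and gene lists were chosen with earlier results of these data known. The authors mapped RNA-seq reads with HISAT2 and deposited FPKM, TPM and coverage per transcript and coverage per exon from StringTie 1.3.3, against GENCODE annotation on GRCh38, although the paper names hg19. ChIP-seq reads were aligned to hg19 with Bowtie2, and MACS2 peaks were deposited for each replicate as positions only. The replicate without a number in the labels was taken as replicate 1. No read counts were used, and the library strand is not given in the sources used here. Gene FPKM was the sum over transcripts. Genes were joined by Ensembl identifier to GENCODE version 44 on GRCh37, and the variable exon of a beta gene was taken as the whole gene. Overlap code was checked on simulated intervals and planted peaks. Named genes were the 5 highest per subfamily, the C-type genes, members at 0, the members with most H3K4me3, neighbours, and the 3 highest and those at 0 of each list, while members that illustrate the late exon peaks, the division of shared exons, repeated sequence or the difference between replicates were picked with their values in view. The input and HiChIP libraries were not used. Python 3.11.15, numpy 2.4.6, pandas 2.3.3, scipy 1.17.1, pysam 0.24.0 and matplotlib 3.10.9 were used. One marker of the epithelial and tubule list is not reported here.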

Additional observations from a re-analysis of the deposited data

How the results depend on the processing

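Of 77 recomputed values 44 stayed within the replicate spread or, for counts, within 1.5 times, and 33 moved. A change of sign was possible only for the difference in level by H3K4me3, and none was seen there. Counts, median levels and percents covered cannot change sign. The number of members expressed was 3, and it was 8 by TPM of at least 1, 5 at an FPKM of at least 0.5 and 34 above 0. With the highest transcript in place of the gene sum it was 2. Of all 19645 protein-coding genes 14688 were above 0 in both libraries. The shares of all genes for the TPM, the 0.5 and the highest transcript settings were not computed. Median levels with members below a mean FPKM of 0.1 left out were 0.156, 0.290 and 0.210 for alpha, beta and gamma genes, and in TPM 0.147 for beta and 0.389 for gamma genes. With each library alone the beta median was 0.0446 to 0.0478, where the mean of both gave 0.0532. Members over 2-fold apart between libraries numbered 10 with no filter on level. With either replicate in place of both, H3K4me3 was at 13 members, H3K27ac at 3 and H3K27me3 at 1, and 1 member had H3K4me3 with H3K27me3. Each replicate alone gave 7 to 10 members for H3K4me3, 1 to 3 for H3K27ac, 0 to 1 for H3K27me3 and 0 to 1 for the pair. The percent of the cluster covered in both replicates was 0.574, 0.727 and 0 for H3K4me3, H3K27ac and H3K27me3. It was 3.32, 1.47 and 0.129 in either replicate, and with 1 replicate left out it ran from 1.25 to 2.64, 0.764 to 1.43 and 0 to 0.129. The difference in level by H3K4me3, 1.57, was 2.29 in TPM, 3.28 with a pseudocount of 0.1, 1.34 among members with a mean FPKM of at least 0.1, and 0.59 with H3K4me3 in either replicate. It was 1.54 to 1.59 with 1 RNA-seq library left out, 0.57 to 1.15 with 1 H3K4me3 replicate left out and 0.75 without PCDHGC3, the last 2 chosen after seeing the data, as was the rule for late exon peaks. Window size and overlap changed no count of marked members. No paired analysis was possible because the samples form 1 condition and no result compares groups. Depth limits values below about 0.1 FPKM most, since reads per gene and heights of peaks are not given.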
